A study of Mus musculus with 4 samples.

Results

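The NR4A and EGR families are transcription factors that T cells switch on within a short time of antigen recognition. All 6 genes examined here, Nr4a1, Nr4a2 and Nr4a3 of the NR4A nuclear receptors and Egr1, Egr2 and Egr3 of the EGR zinc finger factors, were found by symbol among the 23997 genes of the deposited table. They were measured in T follicular helper (Tfh) cells, a CD4 lineage that supports germinal centre B cells, taken from lymph nodes and spleens of 13-week-old C57BL/6 mice. There were 2 libraries from Apoe-/- mice, which lack apolipoprotein E, carry high plasma cholesterol and are prone to atherosclerosis, and 2 from wild-type (WT) mice. The labels do not say how the cells were sorted or stimulated, or whether the libraries of a genotype are separate animals or pools, so their spread may be technical. The 6 genes were chosen with the genotype difference of these same libraries known. Their differences between Apoe-/- and WT cells are therefore given as a description, with no test.

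Both families read out signaling through the T cell receptor (TCR). Receptor engagement raises calcium and activates the ERK kinases. Through serum response factor, which binds CArG boxes, ERK drives the EGR genes, while calcium acts on the NR4A genes through MEF2 factors and cAMP-responsive factors of the CREB family. NR4A receptors bind DNA without a known natural ligand and restrain T cell responses, and EGR2 and EGR3 induce genes that dampen TCR signaling. In Tfh cells, which meet antigen on germinal centre B cells, members of both families are expressed.

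Upstream sequences of the members are shown first because those of the NR4A genes share a feature. RefSeq promoter windows (GRCm38.p6) were matched for 4 of the 6 members, Nr4a1, Nr4a2, Nr4a3 and Egr2, and the 250 bases before each start site were searched on both strands. Capitals mark the core of the cAMP response element, TGACG, which reads CGTCA when it lies on the other strand, and in Egr2 also the CArG box. The Nr4a1 stretch is chr15:101266596-101266845, plus strand, inside the annotated span of the gene and upstream of its start at 101266846. The Nr4a2 stretch is chr2:57124004-57124253, minus strand, directly before the gene's start at 57124003. The Nr4a3 stretch is chr4:48045055-48045104, plus strand, the first 50 bases of a window before the start at 48045305. The annotated span of Nr4a3 begins at 48045078, so most of that window lies inside the gene. The Egr2 stretch is chr10:67537619-67537868, plus strand, before the start at 67537869 and also inside the annotated span of the gene.
Nr4a1: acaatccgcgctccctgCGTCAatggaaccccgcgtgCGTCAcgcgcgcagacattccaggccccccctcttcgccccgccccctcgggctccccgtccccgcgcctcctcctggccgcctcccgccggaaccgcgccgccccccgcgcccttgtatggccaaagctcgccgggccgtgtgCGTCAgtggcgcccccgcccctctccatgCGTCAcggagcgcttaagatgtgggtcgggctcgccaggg
Nr4a2: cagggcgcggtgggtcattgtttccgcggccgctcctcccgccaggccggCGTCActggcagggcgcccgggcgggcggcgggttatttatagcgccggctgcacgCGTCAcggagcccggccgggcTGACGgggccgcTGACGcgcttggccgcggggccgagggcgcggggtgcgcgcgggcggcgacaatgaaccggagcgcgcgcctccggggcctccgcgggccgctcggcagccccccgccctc
Nr4a3: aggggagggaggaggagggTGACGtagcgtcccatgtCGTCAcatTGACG
Egr2: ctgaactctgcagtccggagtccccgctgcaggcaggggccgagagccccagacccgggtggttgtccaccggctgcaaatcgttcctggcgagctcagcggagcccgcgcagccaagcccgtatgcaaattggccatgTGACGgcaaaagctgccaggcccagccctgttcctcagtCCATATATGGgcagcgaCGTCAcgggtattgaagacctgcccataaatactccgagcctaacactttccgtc

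Each of the 3 NR4A windows held 4 matches to TGACG, of which 3 lie in the printed part of Nr4a3. In Nr4a1 all 4 were on the minus strand of the gene, in Nr4a2 the strands were evenly split, and in Nr4a3 only the match at 213 bases upstream was on the minus strand. Of 32851 RefSeq windows of this length, 17.8% held at least 1 match and 0.137% held 4 or more. The Egr2 window above held 2 matches, 111 and 55 bases upstream of the start, with a CArG box between them at 72 bases upstream. A CArG box was present in 1.47% of all windows. Egr2 has 5 RefSeq windows, some of which overlap; 4 of them held a CArG box and 3 held 2 matches to TGACG.

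Of the other motifs searched, the full element TGACGTCA (in 1.55% of all windows), the AP-1 motif TGANTCA (in 6.75%) and the NR4A monomer motif AAAGGTCA (in 1.34%) were not found in any window of the 4 genes. An EGR motif, GCGNGGGCG, which occurs in 4.70% of windows, was found in Nr4a1 at 60 and in Nr4a2 at 74 bases upstream. A MEF2 motif, in 2.92% of windows, was found in Nr4a2 at 167 bases upstream. The NFAT core GGAAA (55.6% of windows) was found in Nr4a2 and in 4 of the Egr2 windows, in 1 of which it overlapped the CArG box. The kB motif (7.25% of windows) matched only in 1 Egr2 window, at 117 and 116 bases upstream, where the matches overlap each other. These matches describe the letters alone, and no binding was measured here.

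**Figure D1:**
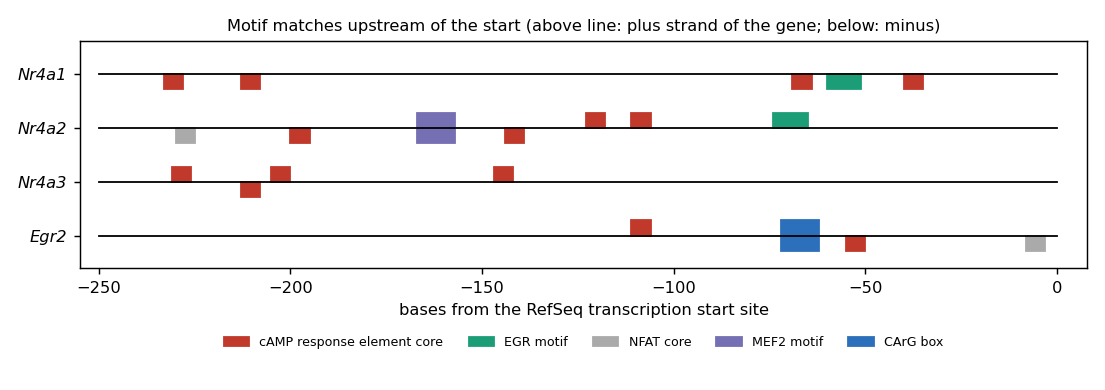
Motif matches in the 250 bases upstream of the RefSeq start site of Nr4a1, Nr4a2, Nr4a3 and Egr2, with distance from the start in bases on the x axis. Boxes above a line are matches on the plus strand of the gene, boxes below on the minus strand, and boxes across the line match the motif on both. Each NR4A window has 4 cAMP response element cores, and Egr2 has 2 beside a CArG box.

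Transcript levels were analysed as the authors' FPKM, fragment counts scaled for transcript length and library size, which allows genes of different length to be compared. FPKM totals ranged from 533866 to 551289 in the Apoe-/- libraries and from 522371 to 527056 in the WT libraries, and read depth is unknown. Apoe itself, which checks the labels, was at 5.09 and 5.21 FPKM in the Apoe-/- libraries and at 145 and 128 FPKM in the WT libraries. Genotypes were compared on log2(FPKM + 1) with limma over the 11187 genes with a mean of 1 FPKM or more, which include all 6 members, at an adjusted p of 0.05. Of these genes 106 were called higher and 99 lower in Apoe-/- cells (0.948% and 0.885%). A fold value is a ratio of group mean FPKM, and a log2 difference is on the log2(FPKM + 1) scale with its standard error (SE).

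All 3 NR4A transcripts were lower in Apoe-/- Tfh cells, with Nr4a3 by far the furthest from its WT level. The EGR transcripts lay closer to WT: Egr2 and Egr3 were lower and Egr1 was higher. The 2 groups did not overlap for any of the 6 members, lower in Apoe-/- for 5 and higher for Egr1. Over all tested genes the groups did not overlap, with Apoe-/- lower, for 22.9%, and, with Apoe-/- higher, for 27.5%. The 3 NR4A genes were among the genes called lower (0.885% of all tested), and no EGR gene was called. Nr4a1 was not called with no FPKM filter, with a mean FPKM of 5 or more, with no mean-variance trend or without WT replicate 1. With a replicate block all 6 members were called, among 1908 higher and 1776 lower genes. These calls come from the fit over all genes. Because the members were chosen on this contrast, the calls are no test of the members. Nothing is read from them, nor from the split between the families.

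**Figure D2:**
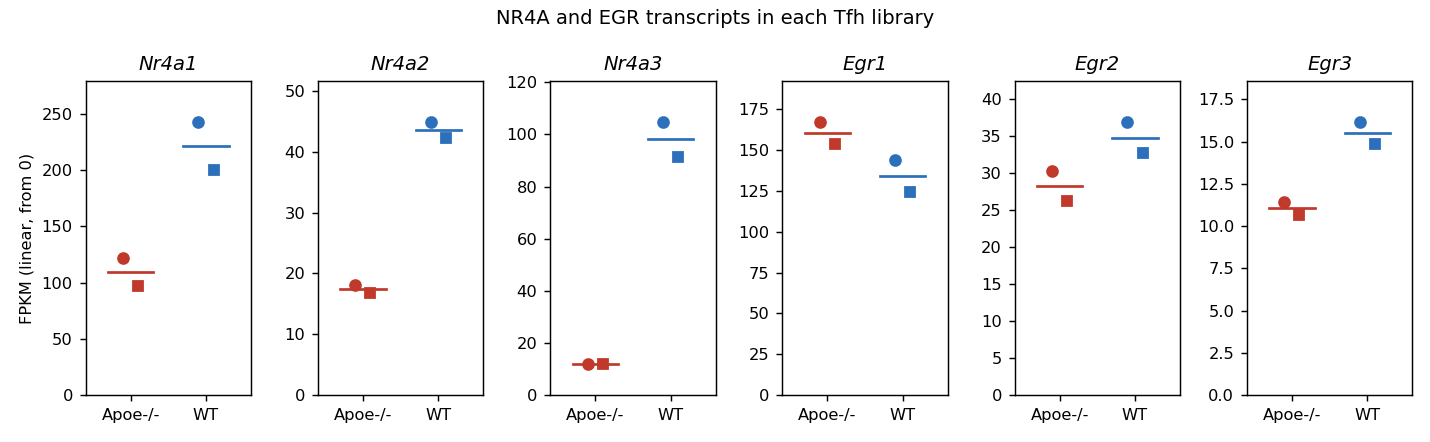
FPKM of the 6 members in each library, on a linear axis from 0 that differs between panels, with Apoe-/- in red and WT in blue. Lines mark the group means of 2 libraries, circles the first replicate and squares the other; Nr4a3 has means of 11.9 in Apoe-/- and 98.1 FPKM in WT cells, whereas Egr1 has 160.4 and 134 FPKM.

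Nr4a3 encodes the receptor NOR1, which in mouse T cells is induced by TCR signaling and acts redundantly with its relatives. Its level was 11.9 and 11.8 FPKM in the Apoe-/- libraries, against 104.8 and 91.4 FPKM in the WT libraries. The Apoe-/- libraries nearly coincided, and both stood far under either WT library. The mean was 11.9 ± 0.0986 FPKM in Apoe-/- and 98.1 ± 9.48 FPKM in WT cells (SD, n = 2 each), 8.26-fold lower in Apoe-/-. The log2 difference was -2.94 (SE 0.11), the 7th lowest of all tested genes. Between libraries of the same replicate number it was -3.03 for number 1 and -2.85 for number 2. In terms of rank within a library, 43.3% and 41.1% of tested genes lay below Nr4a3 in the Apoe-/- libraries, against 93.3% and 92.1% in the WT libraries. Nr4a3 thus stood near the middle of the expressed genes in Apoe-/- cells and among the most abundant transcripts in WT cells.

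Nr4a2 encodes NURR1, the NR4A receptor also known for its role in dopamine neurons. It was at 18.1 and 16.7 FPKM in the Apoe-/- libraries, against 44.9 and 42.3 FPKM in the WT libraries. Replicates of a genotype lay close together and the genotypes far apart. The mean was 17.4 ± 0.964 FPKM in Apoe-/- and 43.6 ± 1.81 FPKM in WT cells (SD, n = 2 each), 2.51-fold lower in Apoe-/-, with a log2 difference of -1.28 (SE 0.11). Of the tested genes, 56.4% and 51.9% lay below it in the Apoe-/- libraries and 81.6% and 79.6% in the WT libraries.

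Nr4a1 encodes NUR77, whose promoter drives widely used reporters of TCR signal strength in mice. Its level was 122 and 96.8 FPKM in the Apoe-/- libraries, against 243 and 199.9 FPKM in the WT libraries. It was the member with the widest spread between replicates, though the higher Apoe-/- library stayed well under the lower WT library. The mean was 109 ± 18.0 FPKM in Apoe-/- and 222 ± 30.5 FPKM in WT cells (SD, n = 2 each), 2.02-fold lower in Apoe-/-. The log2 difference was -1.01 (SE 0.16), with -0.99 for replicate number 1 and -1.04 for number 2. Despite that difference Nr4a1 stayed abundant, with 94.6% and 92.7% of tested genes below it in the Apoe-/- libraries and 97.5% and 96.9% in the WT libraries.

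Egr1, an immediate early gene that needs no new protein synthesis for its induction, was the member that went the other way. It was at 167 and 154 FPKM in the Apoe-/- libraries, against 144 and 124 FPKM in the WT libraries. The lower Apoe-/- library was above the higher WT library by less than the replicates of either genotype differed. The mean was 160.4 ± 9.68 FPKM in Apoe-/- and 134 ± 13.9 FPKM in WT cells (SD, n = 2 each), 1.19-fold higher in Apoe-/-, with a log2 difference of 0.26 (SE 0.11). Egr1 was among the most abundant transcripts in every library, with 96.4% and 95.9% of tested genes below it in the Apoe-/- libraries and 95.5% and 94.5% in the WT libraries.

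Egr2, which with Egr3 has been reported in mice to promote Bcl6 expression and Tfh differentiation, was at 30.2 and 26.2 FPKM in the Apoe-/- libraries, against 36.9 and 32.7 FPKM in the WT libraries. The nearest libraries of the 2 genotypes were closer to each other than the replicates of either genotype. Its mean was 28.2 ± 2.85 FPKM in Apoe-/- and 34.8 ± 2.99 FPKM in WT cells (SD, n = 2 each), 1.23-fold lower in Apoe-/-, with a log2 difference of -0.29 (SE 0.12). Egr3, at 11.4 and 10.7 FPKM in the Apoe-/- libraries against 16.2 and 14.9 FPKM in the WT libraries, was the least abundant member in each library. The Egr3 values were clearly apart, and its mean was 11.1 ± 0.529 FPKM in Apoe-/- and 15.5 ± 0.912 FPKM in WT cells (SD, n = 2 each), 1.40-fold lower in Apoe-/-, with a log2 difference of -0.45 (SE 0.11). Egr4, the remaining gene of the family, was barely detected, at 1.75 and 1.13 FPKM in the Apoe-/- libraries and 2.54 and 1.47 FPKM in the WT libraries. Its groups overlapped and it did not pass the test (limma, adjusted p = 0.540).

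The order of the members by FPKM differed between the genotypes and was the same in both libraries of each. In Apoe-/- cells it ran Egr1, Nr4a1, Egr2, Nr4a2, Nr4a3 and Egr3. In WT cells it ran Nr4a1, Egr1, Nr4a3, Nr4a2, Egr2 and Egr3. No neighbours in either order had overlapping ranges, but in Apoe-/- cells the last pair was close, with Nr4a3 at 1.04 and 1.11 times the level of Egr3, against 6.48 and 6.14 times in the WT libraries. The ratio of Egr1 to Nr4a1 was 1.37 and 1.59 in the Apoe-/- libraries and 0.593 and 0.622 in the WT libraries.

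Summed over each family, the NR4A transcripts amounted to 152 and 125 FPKM in the Apoe-/- libraries, against 393 and 334 FPKM in the WT libraries, with no overlap. The EGR sum was 209 and 190.5 FPKM in the Apoe-/- libraries and 197 and 172 FPKM in the WT libraries, with overlapping ranges. The NR4A sum was thus 0.728 and 0.658 times the EGR sum in Apoe-/- cells and 1.99 and 1.94 times in WT cells. The make-up of the NR4A sum also differed. Nr4a3 made up 7.85% and 9.42% of it in the Apoe-/- libraries and 26.7% and 27.4% in the WT libraries. Nr4a1 made up 80.3% and 77.3% in the Apoe-/- libraries and 61.9% and 59.9% in the WT libraries, and the share of Nr4a2 overlapped, at 11.9% and 13.3% against 11.4% and 12.7%. Within the EGR sum, Egr1 held 80.1% and 80.6% in the Apoe-/- libraries and 73.1% and 72.4% in the WT libraries.

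**Figure D3:**
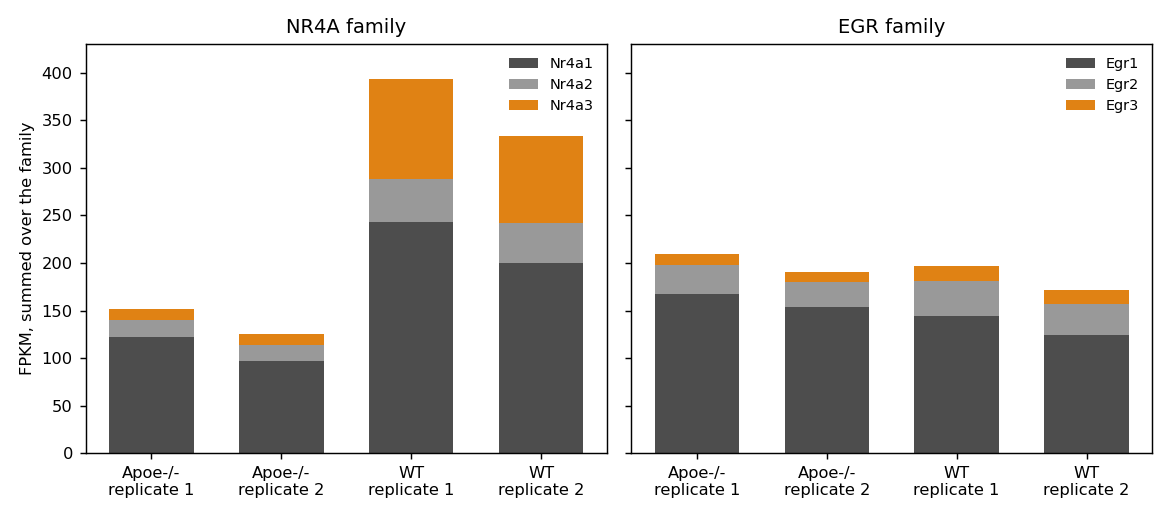
FPKM summed over the NR4A genes (left) and the EGR genes (right) in each library, on a linear axis from 0; each bar is 1 library and the colours are the family members. The NR4A sum is 152 and 125 in the Apoe-/- libraries and 393 and 334 in the WT libraries, and the orange Nr4a3 part is 7.85% and 9.42% of it against 26.7% and 27.4%.

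The members also varied within genotypes in 1 direction. All 6 were higher in the library numbered 1 than in the library numbered 2, in Apoe-/- as in WT cells, which held for 31% of all tested genes. The difference on the log2(FPKM + 1) scale was largest for Nr4a1, at 0.33 within Apoe-/- and 0.28 within WT, and for Nr4a3 it was 0.02 within Apoe-/- and 0.20 within WT. Of 36 other tested TCR-induced genes 23 (63.9%) shared this order. What the numbers stand for is not given in the labels.

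**Figure D4:**
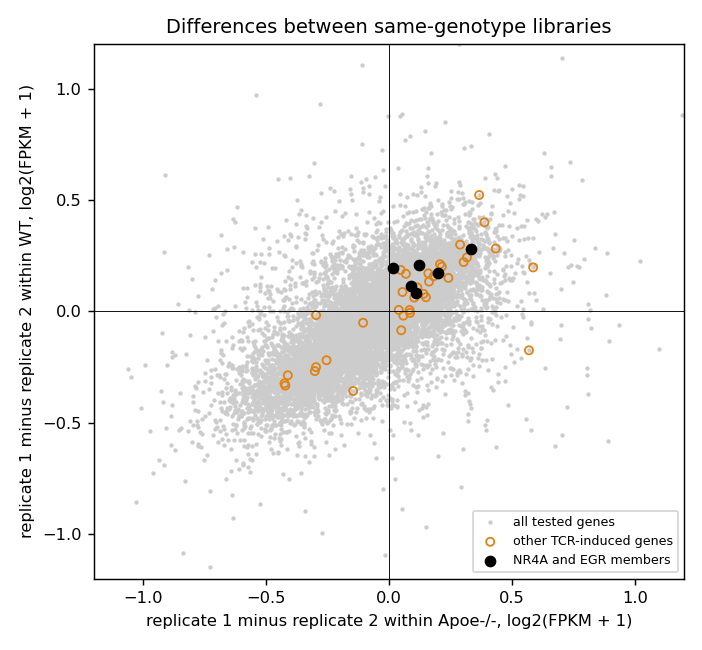
Difference of log2(FPKM + 1) between replicate 1 and replicate 2 within Apoe-/- (x axis) and within WT (y axis) for each tested gene; 63 genes lie outside the plotted range. The 6 members (black) all lie in the upper right part of the plot, above 0 on both axes, where 31% of tested genes lie.

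Other genes known to be induced by TCR signaling were taken from a list of 38, of which 36 were tested. In Apoe-/- cells 5 of them fell, none rose and 31 did not pass. Over all tested genes 0.885% were called lower and 0.948% higher. The median difference of the list was -0.16, against 0.00 over all tested genes. Fosl2, an AP-1 subunit, was at 6.13 and 5.43 FPKM in the Apoe-/- libraries against 41.9 and 40.1 FPKM in the WT libraries (log2 difference -2.63, SE 0.11, limma, adjusted p = 0.00243). Crem, a gene for activators and repressors of cAMP-responsive transcription, was at 5.13 and 6.56 FPKM against 19.7 and 23.9 FPKM in WT (-1.74, SE 0.16, limma, adjusted p = 0.0161). Nfkbid, an atypical inhibitor of the NF-kB family, and the MAP kinase phosphatases Dusp10 and Dusp4 also fell, by 1.28, 1.12 and 0.89 on the log2 scale. Of these 5 genes, RefSeq windows were matched for Fosl2, Dusp10 and Nfkbid. The 250 bases upstream held no match to TGACG in Fosl2 or Dusp10, and 2 matches in 1 of 3 Nfkbid windows. At least 1 match occurred in 17.8% of all windows, and a link to transcript levels was not tested. Dusp4 was not called without WT replicate 1 (adjusted p = 0.0897) or without WT replicate 2 (0.0659), nor with no FPKM filter (0.0605), and Crem was not called with no FPKM filter (0.0546).

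The AP-1 genes Fos and Junb, the most abundant of the TCR-induced list, were at 943 and 886 FPKM in the Apoe-/- libraries against 735 and 680.01 FPKM in the WT libraries, and at 2206 and 1687 FPKM against 1968 and 1491 FPKM. Neither passed the test (limma, adjusted p = 0.101 and 0.641), and the sign for Junb turned without Apoe-/- replicate 1 and without WT replicate 2. Over the 36 tested genes of the list, groups did not overlap for 15 that were lower and 9 that were higher in Apoe-/- cells, where the shares over all tested genes were 22.9% and 27.5%.

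**Figure D5:**
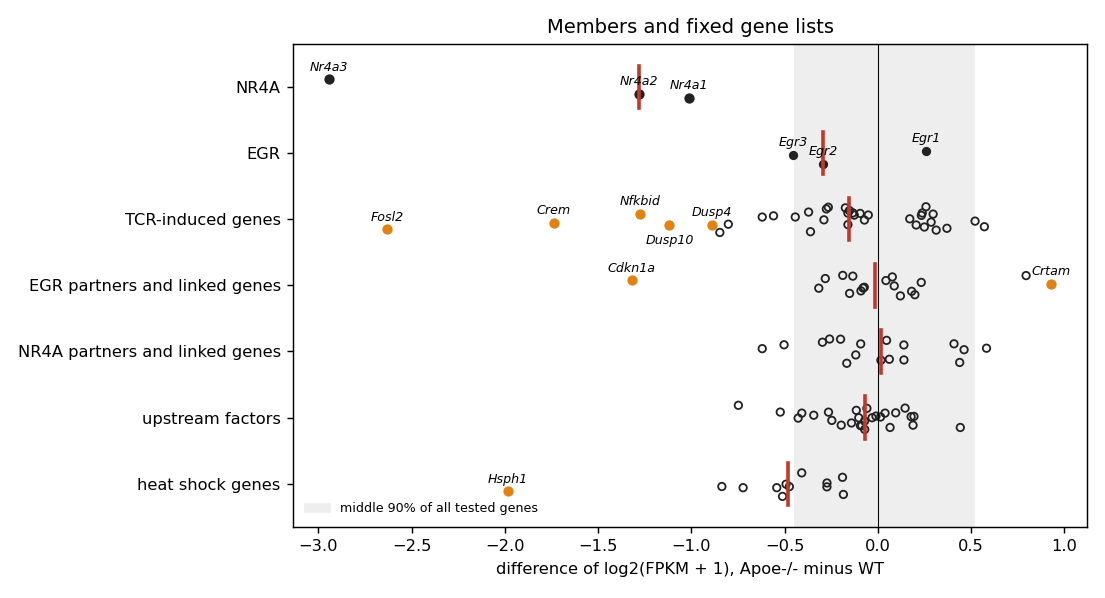
Difference of log2(FPKM + 1), Apoe-/- minus WT, for the members and for the tested genes of 5 lists, 1 point per gene; red bars are medians and the grey band holds the middle 90% of all tested genes (-0.44 to 0.52). Members are black points, shown without a test, and orange points are list genes past the adjusted threshold; Nr4a3 lies at -2.94 and Fosl2 at -2.63.

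Nab1 and Nab2 encode corepressors that bind EGR proteins, and Nab2 is itself induced by EGR factors. Nab2 was at 30.2 and 26.3 FPKM in the Apoe-/- libraries and 28.7 and 24.8 FPKM in the WT libraries, and Nab1 at 31.9 and 40.8 FPKM against 32.3 and 37.8 FPKM. Their groups overlapped and neither passed (limma, adjusted p = 0.777 and 0.903); the sign for Nab1 turned when libraries were rescaled to 1 FPKM total, and for both when single libraries were left out. Of 18 tested genes linked to EGR factors (median -0.01), Cdkn1a, the cell cycle inhibitor p21, fell and Crtam, an adhesion receptor of activated T cells, rose, while 16 did not pass. The shares called over all tested genes were 0.885% lower and 0.948% higher. The most abundant EGR-linked genes were Dgka and Dgkz, diacylglycerol kinases that dampen TCR signaling. Dgka was at 325 and 341 FPKM in the Apoe-/- libraries against 298 and 314 FPKM in the WT libraries. Dgkz was at 267 and 230.4 FPKM against 292 and 253 FPKM (limma, adjusted p = 0.477 for Dgka and 0.579 for Dgkz). Cdkn1a was at 5.75 and 5.27 FPKM in the Apoe-/- libraries against 15.9 and 14.6 FPKM in the WT libraries (log2 difference -1.32, SE 0.12, limma, adjusted p = 0.0148), and Crtam at 8.30 and 7.19 FPKM against 3.37 and 3.80 FPKM (0.93, SE 0.13, limma, adjusted p = 0.0432). Crtam was not called without WT replicate 1 (adjusted p = 0.124) or without WT replicate 2 (0.0862), with no FPKM filter (0.101) or with a mean FPKM of 5 or more (0.0600).

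Of 17 tested genes linked to NR4A receptors none passed (median 0.02). Among them Pdcd1, the gene of the inhibitory receptor PD-1, was at 203 and 179 FPKM in the Apoe-/- libraries against 283 and 259.6 FPKM in the WT libraries, without overlap (log2 difference -0.50, SE 0.10, limma, adjusted p = 0.0887). Ctla4, another inhibitory receptor, was at 302 and 367 FPKM against 379 and 441 FPKM in WT (adjusted p = 0.293). Rxra and Rxrb encode retinoid X receptors that pair with NR4A1 and NR4A2; Rxra was at 5.36 and 4.94 FPKM against 4.68 and 4.48 FPKM in WT and Rxrb at 34.5 and 31.02 FPKM against 33.1 and 26.5 FPKM, and neither passed (limma, adjusted p = 0.560 and 0.628). Of 27 tested genes known to act upstream of the members, among them serum response factor, MEF2, CREB, calcineurin and ERK pathway genes, none passed (median -0.07). Their groups did not overlap for 10 that were lower and 3 that were higher in Apoe-/- cells. The shares over all tested genes were 22.9% and 27.5%. At an unadjusted p under 0.05 limma gave 1296 higher and 925 lower genes over the whole table, and a gene that did not pass is not shown to be equal.

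Genes with the library profile most like each member were found by the Euclidean distance between log2(FPKM + 1) profiles over the 4 libraries, each centred on its own mean. The profiles contain the genotype difference, and 4 libraries leave many genes close to each other. Fosl2 was nearest to Nr4a3 (distance 0.34), followed by the endosomal GTPase gene Rab4a (0.92) and the chaperone gene Hsph1 (0.999). Nr4a2 was nearest to Cdkn1a (0.04), Susd2 (0.05) and the aspartate aminotransferase gene Got1 (0.05). For Nr4a1 those named here were the histone demethylase gene Kdm6b (0.05) and, after it, Gprc5a (0.12). Egr1 was nearest to Sirt4, Zer1 and Crat, Egr2 to Anks1, Abcc5 and Myc, and Egr3 to Cenpn, Gm11974 and Haus5, all at 0.01 to 0.04. Among the members themselves Egr2 and Egr3 were the closest pair (0.18), then Nr4a1 and Nr4a2 (0.34), while Nr4a3 was at least 1.66 from every other member.

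Markers of other cells and of stress moved with the genotype in the same libraries. Genes that define T and Tfh cells, including Cd4, Cd3e, Cxcr5 and Bcl6, summed to 2594 and 2669 FPKM in the Apoe-/- libraries against 2619.7 and 2702 FPKM in the WT libraries, and none of the 10 passed. The sum covers differences of both signs. Cd4, Cxcr5 and Bcl6 were higher in Apoe-/- without overlap, and Pdcd1 and Sh2d1a were lower without overlap. All 10 B cell markers were lower in Apoe-/- without overlap and 5 were called. Over all tested genes 22.9% were lower without overlap and 0.885% were called lower. The B cell markers summed to 202 and 193 FPKM in the Apoe-/- libraries against 334 and 329.9 FPKM in WT. Myeloid markers summed to 159.8 and 181 FPKM against 108 and 102 FPKM, with 3 of 10 called higher (S100a8, S100a9 and Csf3r). Of the 10 myeloid markers, 6 were higher in Apoe-/- without overlap and Emr1 was lower without overlap. Cd68, Cd14 and Fcgr1 overlapped between the groups. For comparison, 0.948% of all tested genes were called higher and 27.5% were higher without overlap. S100a8 and S100a9 had the largest differences of the list. Their means were 25.1 and 24.8 FPKM in Apoe-/- against 2.53 and 3.81 FPKM in WT cells. CD8 T and NK markers summed to 26.7 and 30.7 FPKM against 18.1 and 19.7 FPKM, with none of 6 called. Dendritic cell markers summed to 269 and 249 FPKM against 249 and 218 FPKM, with 1 of 6 called higher; H2-Ab1, which B cells also express, made up most of that sum (means of 239 and 224 FPKM, groups overlapping), and the other 5 tested markers were higher in Apoe-/- without overlap. Itgax among them was at 9.12 and 9.15 FPKM in the Apoe-/- libraries against 3.84 and 3.49 FPKM in the WT libraries. No marker found in the table was at 0 in all libraries. B cells and myeloid cells also induce NR4A and EGR genes, and in bulk samples fewer cells of a type and less RNA per cell cannot be told apart. Of 12 heat shock genes, 11 were lower in Apoe-/- without overlap, against 22.9% of all tested genes. Only Hsph1 was called, at 33.3 and 37.4 FPKM in the Apoe-/- libraries against 134 and 151 FPKM in the WT libraries (log2 difference -1.98, SE 0.11, limma, adjusted p = 0.00802). The most abundant heat shock genes, Hspa8 and Hsp90ab1, had mean levels of 1150.3 and 959.8 FPKM in Apoe-/- against 1525 and 1160.1 FPKM in WT cells (limma, adjusted p = 0.102 and 0.153). The part of these markers and of the stress genes in the levels of the members was not tested.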

How the data were processed

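RNA sequencing of Tfh cells from 2 Apoe-/- and 2 WT libraries was analysed from the table of FPKM per gene symbol that the authors deposited. Tools in the submitters' processing notes are Cuffdiff 2.2.0, TopHat2 2.0.13 and CASAVA 1.8.2, with the build mm10; which annotation, strand setting and filters were used is not given in the sources used here. None of the 6 members overlaps another gene in GENCODE M21. Rows were split on white space, because the Bcl6 and Cxcr5 rows lack a tab. Values were taken as log2(FPKM + 1) for genes with a mean of 1 FPKM or more and compared by limma 3.58.1 in R 4.3.3 (two-sided, eBayes with trend, no block); p-values were adjusted by Benjamini-Hochberg over the whole tested table, with a threshold of 0.05. The procedure was also run on simulated data with noise independent between libraries, unlike these libraries, and no result here rests on that run. The members and gene lists were chosen with earlier results of these data known. Named genes were Apoe, the members, list genes that passed (up to 8 with the largest difference in each list) with the 2 most abundant, the family relatives and partners, and the 3 nearest profiles per member; some genes this rule names are not reported here. Of the cell type lists, sums and counts are given, with some single markers. The smallest p that an exact permutation of 2 against 2 libraries allows is 0.333, so none was run. Alternatives were a pseudocount of 0.1, no filter, a mean FPKM of 5 or more, no trend, rescaled totals, a replicate block and leaving out each library.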

Additional observations from a re-analysis of the deposited data

How the results depend on the processing

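The log2 differences of the 6 members, which carry no test, ranged over the 10 alternatives from -3.04 to -2.84 for Nr4a3, -1.33 to -1.23 for Nr4a2, -1.18 to -0.85 for Nr4a1, -0.51 to -0.40 for Egr3, -0.39 to -0.19 for Egr2 and 0.15 to 0.36 for Egr1. The filters, the trend and the replicate block leave these differences as they are by construction, and leaving out 1 of 2 libraries moves them by a fixed part of the gap between replicates, so the ranges are no sign of stability. Over all genes, limma called 35 higher and 41 lower with no filter, 51 higher with a mean FPKM of 5 or more, and 54 to 317 higher and 61 to 301 lower when 1 library was left out, on the assumption that a lone library varies as the other genotype does. The fewest higher came without WT replicate 2 (54) and the most without Apoe-/- replicate 2 (317).

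The TCR-induced list had 3 lower with no filter, and 4 to 7 lower and 0 to 1 higher with 1 library left out. The EGR-linked list had 0 higher with no filter or a mean FPKM of 5 or more, and 0 to 2 higher with 1 library left out. The NR4A-linked list had 1 lower with rescaled totals. With 1 library left out, upstream factors had 0 to 1 lower and heat shock genes 1 to 5 lower (5 without Apoe-/- replicate 2). Signs that turned belonged to genes that passed in neither case: Nab1 was at -0.0033 with rescaled totals, and with 1 library left out values ran from -0.0285 to 0.371 for Junb, -0.129 to 0.217 for Nab1, -0.0237 to 0.179 for Nab2 and -0.0154 to 0.295 for Rxrb.

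Nothing in the labels ties equal replicate numbers to a shared source, so no block was used, although deviations from the group means of equally numbered libraries correlated over genes (Pearson r = 0.214, Spearman rho = 0.667). With the replicate block, which leaves 1 residual degree of freedom, limma called 1908 genes higher and 1776 lower, 12 higher and 18 lower in the TCR-induced list, 5 and 3 in the EGR-linked, 3 and 5 in the NR4A-linked, 4 and 6 among upstream factors, and 12 lower among heat shock genes. With FPKM alone the depth, and so the precision of low genes such as Egr4, is unknown.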
